A study of Mus musculus with 45 samples.

Results

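The 3 Meis genes Meis1, Meis2 and Meis3 and the 3 Pbx genes Pbx2, Pbx3 and Pbx4 were followed in neuroepithelial organoids with and without all-trans retinoic acid (RA). The members were taken by gene symbol, and each of the 6 matched 1 row among the 54532 genes of the count table. The organoids were grown clonally from wild-type R1 mouse embryonic stem (ES) cells, an established male line, embedded in Matrigel in N2B27, a serum-free neural medium. All 45 libraries share the line, the genotype, the matrix and the medium. At day 2 the medium was replaced with N2B27 alone (untreated) or N2B27 with 250 nM RA, and RNA was sequenced on day 2, then 8 h and 18 h later, and from there every 12 h up to 78 h (30 h, 42 h, 54 h, 66 h and 78 h). Each of the 15 groups held 3 biological replicates, each a pool of many organoids of the 1 line.

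Meis and Pbx proteins belong to the TALE class of homeodomain proteins, named for a loop of extra amino acids in the homeodomain. They bind DNA together with each other and with Hox proteins, and Meis binding to Pbx helps to bring Pbx into the nucleus. In the vertebrate hindbrain and spinal cord they act as cofactors of Hox proteins, whose genes are known targets of RA signalling, and Meis genes themselves respond to RA in several embryonic tissues.

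Libraries held 17298632 to 39688686 counts (median 25923745), and levels are given as CPM, the count of a gene relative to the scaled total of its library, with TMM, a correction for library composition. In 6 libraries the 4 Y-linked genes Ddx3y, Eif2s3y, Kdm5d and Uty averaged 1.22 to 3.65 CPM, against 22.9 to 89.5 CPM in the other 39. These were replicate 3 of RA 8 h, all 3 untreated 30 h libraries and replicates 1 and 3 of RA 30 h, so that log2 fold changes, list counts and shares at 8 h and 30 h are given with and without the library that differed from its group. Of the neuroepithelium markers Sox1, Sox2, Pax6, Nes, Cdh2 and Hes5, none was at 0 in all libraries of a group. Their summed level was 457 to 475 CPM on day 2. At 78 h it was 913 to 1074 CPM untreated and 1067 to 1227 CPM with RA. Sox2 fell from a mean of 406 CPM on day 2 to 220 CPM untreated and 235 CPM with RA at 78 h, while the other markers rose. Sox1 at 78 h was lower with RA, at 93.8 to 96.4 CPM against 149.9 to 183 CPM untreated. Pax6, Nes and Hes5 were higher with RA at 78 h without overlap. The pluripotency and epiblast markers Pou5f1, Nanog, Zfp42, Fgf5 and Dnmt3b summed to 2887 to 3182 CPM untreated and 802 to 879 CPM with RA at 18 h. Dnmt3b gave 1947 CPM of the untreated sum and 243 CPM with RA, and Pou5f1 and Fgf5 were lower with RA too. Nanog went the other way, at 110 to 130 CPM untreated and 137 to 149 CPM with RA, and Zfp42 overlapped between the arms.

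Promoters of 5 of the 6 genes were found in RefSeq (GRCm38.p6), and none was found for Pbx3. The 250 bases before each start were searched on both strands for AGGTCA, the core hexamer bound by nuclear receptors such as the RA receptors, for TGACAG, a Meis core site, for TGATNNAT, a Pbx-Hox site, and for CCAAT. The first 3 motifs matched none of the 5 windows, where 14%, 15.9% and 7.68% of all 32851 promoters of that length hold them. CCAAT matched the windows of Meis1, Meis2 and Pbx4, and 33.8% of all promoters hold it. The match of Meis2 lies in an annotated exon of another Meis2 transcript and is not shown. Stretches of the Meis1, Meis2 and Pbx2 windows outside annotated exons are shown because Meis2 and Pbx2 were called at 8 h by edgeR and Meis1 had the largest difference between the arms. They lie at chr11:19018986-19019219 (minus strand), chr2:116064722-116064801 (minus strand) and chr17:34592009-34592258 (plus strand), and capitals mark the CCAAT match, the only match of the 4 motifs in them.
Meis1: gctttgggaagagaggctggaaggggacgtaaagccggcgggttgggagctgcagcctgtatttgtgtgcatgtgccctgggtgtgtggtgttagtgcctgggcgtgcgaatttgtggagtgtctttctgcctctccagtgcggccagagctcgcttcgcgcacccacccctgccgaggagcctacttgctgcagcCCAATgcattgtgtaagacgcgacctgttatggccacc
Meis2: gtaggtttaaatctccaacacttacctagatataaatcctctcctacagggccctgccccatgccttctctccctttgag
Pbx2: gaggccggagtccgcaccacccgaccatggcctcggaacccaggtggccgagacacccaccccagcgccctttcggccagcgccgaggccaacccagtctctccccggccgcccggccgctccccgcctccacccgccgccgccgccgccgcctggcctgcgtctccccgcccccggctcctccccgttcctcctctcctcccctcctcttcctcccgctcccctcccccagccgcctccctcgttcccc
The GC content of the 250 bases was 59.6% for Meis1, 47.6% for Meis2 and 77.6% for Pbx2, against a median of 52.4% over all promoters. For all 5 genes the start that RefSeq gives lies inside the gene as annotated in GENCODE M21. The windows of Meis2, Meis3 and Pbx2 lie wholly inside their genes, and those of Meis1 and Pbx4 lie inside in part. The motif search thus did not cover the bases before the outermost annotated start of each gene.

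To ask when RA changed the cofactors, RA was compared with no RA at each time. A gene was called when its adjusted p was under 0.01 and its log2 fold change was beyond 1 in size. At 8 h, 2 of the 6 genes were called, Meis2 and Pbx2, where 1.8% of all 15836 genes tested were called in either direction. These calls were sensitive to the libraries and the fit. With the replicate number as a block 0 of the 6 were called (adjusted p = 0.02 for Meis2 and 0.025 for Pbx2). Leaving out any 1 of the 6 libraries other than replicate 3 of RA 8 h also left 0. Without that replicate Meis1, Meis2 and Pbx2 were called, where the share over all genes was 5.1% in place of 1.8%. DESeq2 called the same 3 genes, and its share over all genes is not given here. At 18 h, 4 were called (Meis1, Meis2, Meis3 and Pbx2) beside 10.9% of all genes, and at 30 h the same 4 were called beside 8.45%. At 42 h the called genes were Meis1 and Pbx2 beside 12.5% of all genes, and at 54 h they were again Meis1 and Pbx2 beside 13.2%. At 66 h Meis1 was called alone beside 11.5%, and at 78 h none of the 6 was called beside 11.7%. Every call was a higher level with RA. In bulk RNA, more cells that express a gene and more RNA per cell cannot be told apart. The count of 0 at 78 h is from edgeR, and DESeq2 also called 0. At that time all 6 genes had an unadjusted p under 0.05 and 4 had an adjusted p under 0.01, with log2 fold changes below 1 in size. The share of all genes that met these cuts was not counted. At an adjusted p under 0.05 without a size threshold, 4 of the 6 passed beside 8011 of all 17059 genes, so that passing on p alone was common.

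**Figure D1:**
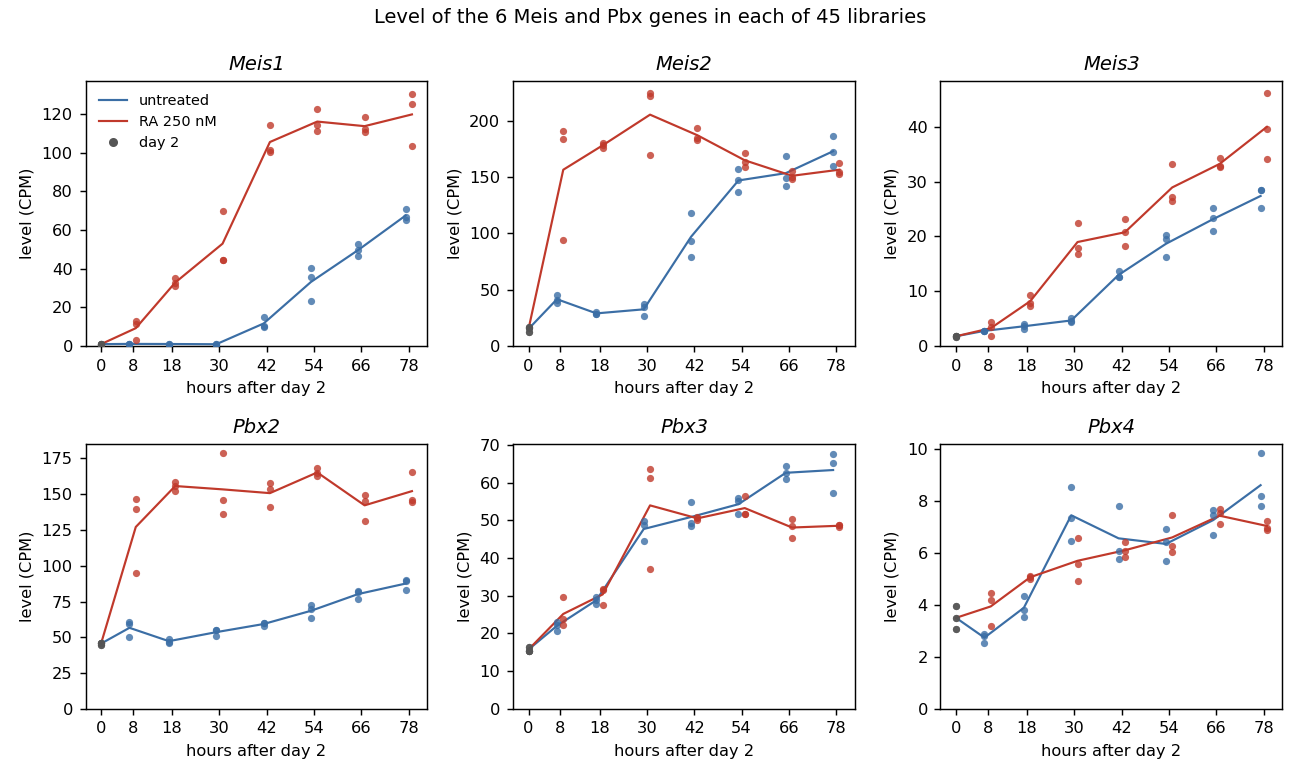
Level of each gene in CPM (y axes, each on its own scale from 0) against hours after day 2 (x axes). Points are single libraries, lines join the means of 3 libraries, and the shared day 2 group is grey. The RA and untreated points of Meis1 lie apart at every time after day 2, those of Meis2 meet at 66 h, and those of Pbx3 overlap until 54 h.

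Meis1 (chromosome 11, 18879817 to 19018985, minus strand, GRCm38), which encodes a Hox and Pbx partner, had the widest range of the 6 genes. Its level on day 2 was 1.12, 1.10 and 0.789 CPM, from 19 to 27 counts a library. Untreated libraries held 1.04, 1.29 and 1.06 CPM at 8 h, 0.812, 1.28 and 1.15 CPM at 18 h, and 0.865, 0.793 and 1.23 CPM at 30 h. These 4 groups overlapped with each other. With RA the level was 11.3, 13.2 and 3.26 CPM at 8 h, 32.6, 30.8 and 35.1 CPM at 18 h, and 44.3, 69.9 and 44.6 CPM at 30 h. Every RA library was above every untreated library at these times, and the low library at 8 h and the high library at 30 h are the ones that differed from their groups in Y-linked genes.

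The log2 fold change of Meis1 was 3.03 ± 0.51 (SE) at 8 h with an adjusted p of 0.012 (edgeR), 4.91 ± 0.12 at 18 h and 5.78 ± 0.29 at 30 h. The 8 h value was called by DESeq2 (adjusted p = 5.1e-09), in 1 edgeR fit of all 45 libraries (1.2e-08) and without a filter on low counts (3.1e-05). Without replicate 3 of RA 8 h it was 3.42 ± 0.17 and called, and without replicate 2 of RA 30 h it was 5.51 ± 0.14. Untreated levels then climbed to 9.63, 15.2 and 10.2 CPM at 42 h, 23.3, 35.8 and 40.4 CPM at 54 h, 49.9, 46.4 and 52.8 CPM at 66 h, and 66.8, 65.0 and 70.6 CPM at 78 h. In RA libraries Meis1 stood at 114, 102 and 100.5 CPM at 42 h, 123, 111 and 114 CPM at 54 h, 118, 112 and 111 CPM at 66 h, and 104, 125 and 130.5 CPM at 78 h, and these 4 RA groups overlapped along their order of means. The difference was 3.16 ± 0.14 at 42 h, 1.79 ± 0.15 at 54 h, 1.21 ± 0.06 at 66 h and 0.84 ± 0.08 at 78 h on the log2 scale. The untreated groups at 66 h and 78 h overlapped the RA group at 30 h only through its replicate 2 (69.9 CPM). They lay above replicates 1 and 3 of RA 30 h (44.3 and 44.6 CPM) and below all RA libraries from 42 h. The gene Gm37818 on the same strand shares 1029 exon bases with Meis1 and held at most 121 counts in a library. Relative to the counts of Meis1 it reached at most 18.2%, in a different library from the one with 121 counts. The antisense gene Gm16140 shares 896 bases and held at most 5 counts.

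Meis2 (chromosome 2, 115863064 to 116065839, minus strand) had the highest mean level per length of the 3 Meis genes in all 15 groups, overlapping with Meis3 at RA 78 h. It stood at 16.6, 16.3 and 12.8 CPM on day 2. Untreated libraries held 38.6, 41.1 and 45.0 CPM at 8 h, 28.8, 30.0 and 28.3 CPM at 18 h, and 37.2, 26.4 and 34.3 CPM at 30 h, so that the untreated level at 18 h was below that at 8 h without overlap. With RA the level was 184, 191 and 94.4 CPM at 8 h, 179, 176 and 179.8 CPM at 18 h, and 224.5, 169 and 222 CPM at 30 h. The lowest RA library at 8 h was more abundant in Meis2 than every untreated library up to 30 h.

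The log2 fold change of Meis2 was 1.91 ± 0.25 at 8 h (adjusted p = 0.0042, edgeR), 2.63 ± 0.05 at 18 h and 2.65 ± 0.16 at 30 h, or 2.74 without replicate 2 of RA 30 h. Leaving out replicate 3 of RA 8 h gave 2.16 ± 0.07, and leaving out any 1 of the other 5 libraries at 8 h left no call for Meis2 or Pbx2, with adjusted p up to 0.039 for Meis2 and 0.042 for Pbx2. Untreated Meis2 reached 79.2, 118 and 93.4 CPM at 42 h, when RA libraries held 185, 193 and 183 CPM, a difference of 0.94 ± 0.11 with an adjusted p of 6.0e-05 that fell short of the size threshold. Without replicate 2 of untreated 42 h, the highest of its group, the difference was 1.09 and was called. At 54 h Meis2 held 137, 147 and 157 CPM untreated and 164, 159 and 172 CPM with RA, a difference of 0.15 ± 0.06 without overlap (adjusted p = 0.059). At 66 h the untreated libraries held 149, 142 and 169 CPM and the RA libraries 155, 148 and 149.9 CPM, and the groups overlapped. The difference there was -0.01 on the log2 scale, with a 95% interval of -0.15 to 0.13, and at 78 h, with 159.8, 172 and 187 CPM untreated and 155, 153 and 162 CPM with RA, it was -0.13 (interval -0.25 to -0.00441, adjusted p = 0.083). The arms of Meis2 were thus apart up to 54 h and overlapped at 66 h and 78 h.

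Meis3 (chromosome 7, 16175090 to 16186504, plus strand) was low on day 2, at 1.78, 1.85 and 1.74 CPM. At 8 h the untreated libraries held 2.80, 2.83 and 2.69 CPM and the RA libraries 3.56, 4.35 and 1.88 CPM, with overlap (log2 fold change 0.24, interval -0.46 to 0.95). Without replicate 3 of RA 8 h the difference was 0.50 with an adjusted p of 0.053, and without replicate 2 of RA 8 h it was -0.01. Meis3 was thus not called at the time when Meis2 and Pbx2 were.

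At 18 h Meis3 held 3.61, 4.08 and 3.15 CPM untreated and 9.34, 7.34 and 7.87 CPM with RA, and at 30 h 4.51, 5.12 and 4.39 CPM against 17.8, 22.4 and 16.7 CPM. The arms did not overlap at either time. The log2 fold change was 1.20 ± 0.14 at 18 h (adjusted p = 1.6e-05) and 2.03 ± 0.17 at 30 h (adjusted p = 2.9e-04), or 1.87 without replicate 2 of RA 30 h. Untreated Meis3 held 12.7, 13.8 and 12.5 CPM at 42 h, 16.2, 19.4 and 20.3 CPM at 54 h, and 23.3, 21.1 and 25.2 CPM at 66 h. The RA libraries held 23.3, 20.8 and 18.2 CPM, then 33.2, 27.1 and 26.5 CPM, then 32.8, 32.6 and 34.3 CPM, above every untreated library of the same time. From 42 h to 78 h the difference stayed at 0.66, 0.61, 0.53 and 0.56 with adjusted p from 1.6e-04 to 9.0e-04, below the size threshold at each time. Both arms had their highest mean of Meis3 at 78 h, with 25.3, 28.4 and 28.5 CPM untreated and 34.2, 39.7 and 46.1 CPM with RA.

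Pbx2 (chromosome 17, 34591266 to 34597400, plus strand), which encodes a broadly expressed Pbx protein, stood at 46.1, 44.5 and 46.1 CPM on day 2. At 8 h the untreated libraries held 50.5, 59.0 and 60.4 CPM and the RA libraries 147, 139.5 and 94.8 CPM. At 18 h they held 48.6, 46.3 and 46.9 CPM against 152, 159 and 156 CPM. At 30 h Pbx2 held 55.0, 55.1 and 50.6 CPM untreated and 146, 179 and 136 CPM with RA. All RA groups of Pbx2 from 18 h on had means between 142 and 165 CPM. Against 152 to 159 CPM with RA at 18 h, the RA libraries lay above at 54 h (163 to 168 CPM) and below at 66 h (132 to 149.8 CPM).

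The log2 fold change of Pbx2 was 1.17 ± 0.16 at 8 h (adjusted p = 0.0052, edgeR), 1.73 ± 0.05 at 18 h, 1.52 ± 0.13 at 30 h (1.37 without replicate 2 of RA 30 h), 1.34 ± 0.06 at 42 h and 1.25 ± 0.06 at 54 h. At 66 h it was 0.84 ± 0.06 and at 78 h 0.81 ± 0.06, with adjusted p of 2.2e-06 and 1.2e-06. The 8 h value was 1.33 without replicate 3 of RA 8 h, and 1.06 to 1.21 without any 1 of the other 5 libraries, with adjusted p from 0.019 to 0.042 and no call. Untreated Pbx2 stood at 57.6, 59.9 and 60.3 CPM at 42 h, 63.3, 70.0 and 72.3 CPM at 54 h, and 76.8, 82.3 and 81.6 CPM at 66 h. With RA it stood at 158, 154 and 141 CPM, then 163, 165 and 168 CPM, then 132, 149.8 and 145 CPM. Untreated libraries reached 83.2, 90.3 and 89.2 CPM at 78 h, when RA libraries held 146, 145 and 166 CPM. No untreated library at any time reached the lowest RA library. The neighbouring gene Gpsm3 on the same strand shares 227 exon bases with Pbx2, and it held 11 to 139 counts a library, at most 7.66% of the counts of Pbx2.

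Pbx3 (chromosome 2, 34171457 to 34373142, minus strand) climbed in both arms. It held 16.4, 15.4 and 15.4 CPM on day 2. At 8 h the level was 23.2, 20.6 and 22.3 CPM untreated and 22.1, 23.7 and 29.7 CPM with RA, and replicate 3 of RA 8 h was the highest of the 6 libraries, where it was the lowest with RA in Meis1, Meis2, Meis3 and Pbx2. The difference was 0.20 with that library and 0.05 without it. At 18 h the level was 28.8, 27.9 and 29.7 CPM untreated and 31.8, 27.7 and 31.6 CPM with RA, and at 54 h it was 51.6, 55.3 and 56.0 CPM against 51.7, 51.7 and 56.4 CPM. The arms overlapped from 8 h to 54 h. At 42 h it was 48.6, 54.9 and 49.2 CPM untreated and 49.97, 50.7 and 50.9 CPM with RA, a log2 difference of -0.02 (interval -0.16 to 0.11). The difference was 0.08 at 18 h (interval -0.06 to 0.23) and -0.04 at 54 h (interval -0.18 to 0.09).

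At 30 h Pbx3 with RA was split between 63.7 and 61.2 CPM in replicates 1 and 3 and 37.1 CPM in replicate 2, around untreated values of 49.9, 48.8 and 44.5 CPM. The difference was 0.17 with an adjusted p of 0.53, and 0.36 with an adjusted p of 2.7e-04 without replicate 2. At 66 h Pbx3 was lower with RA, at 48.5, 45.4 and 50.4 CPM against 60.9, 62.7 and 64.3 CPM untreated, and at 78 h at 48.7, 48.3 and 48.8 CPM against 57.2, 65.2 and 67.7 CPM. The log2 difference was -0.37 ± 0.06 at 66 h (adjusted p = 3.6e-04) and -0.37 ± 0.06 at 78 h (adjusted p = 4.0e-04), without overlap and under the size threshold.

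Pbx4 (chromosome 8, 69832491 to 69872292, plus strand) was the lowest of the 3 Pbx genes, with 3.07, 3.50 and 3.94 CPM on day 2. At 8 h it held 2.80, 2.53 and 2.89 CPM untreated and 3.19, 4.44 and 4.20 CPM with RA, without overlap, and the difference was 0.53 ± 0.21 (adjusted p = 0.14), or 0.46 without replicate 3 of RA 8 h. At 18 h it held 4.33, 3.795 and 3.55 CPM untreated and 5.12, 4.99 and 5.09 CPM with RA, a log2 difference of 0.40 ± 0.13 with an adjusted p of 0.021. At 78 h it held 8.20, 7.79 and 9.84 CPM untreated and 6.98, 6.89 and 7.25 CPM with RA, a difference of -0.28 (interval -0.53 to -0.02, adjusted p = 0.073). At 30 h the order was the other way, with 6.47, 8.54 and 7.35 CPM untreated and 5.58, 4.93 and 6.59 CPM with RA, and the groups overlapped (difference -0.385, or -0.30 without replicate 2 of RA 30 h). They also overlapped at 42, 54 and 66 h, where all 18 libraries lay between 5.71 and 7.82 CPM. Pbx4 was called at no time, and its difference between the arms was between -0.385 and 0.53 at all 7 times.

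**Figure D2:**
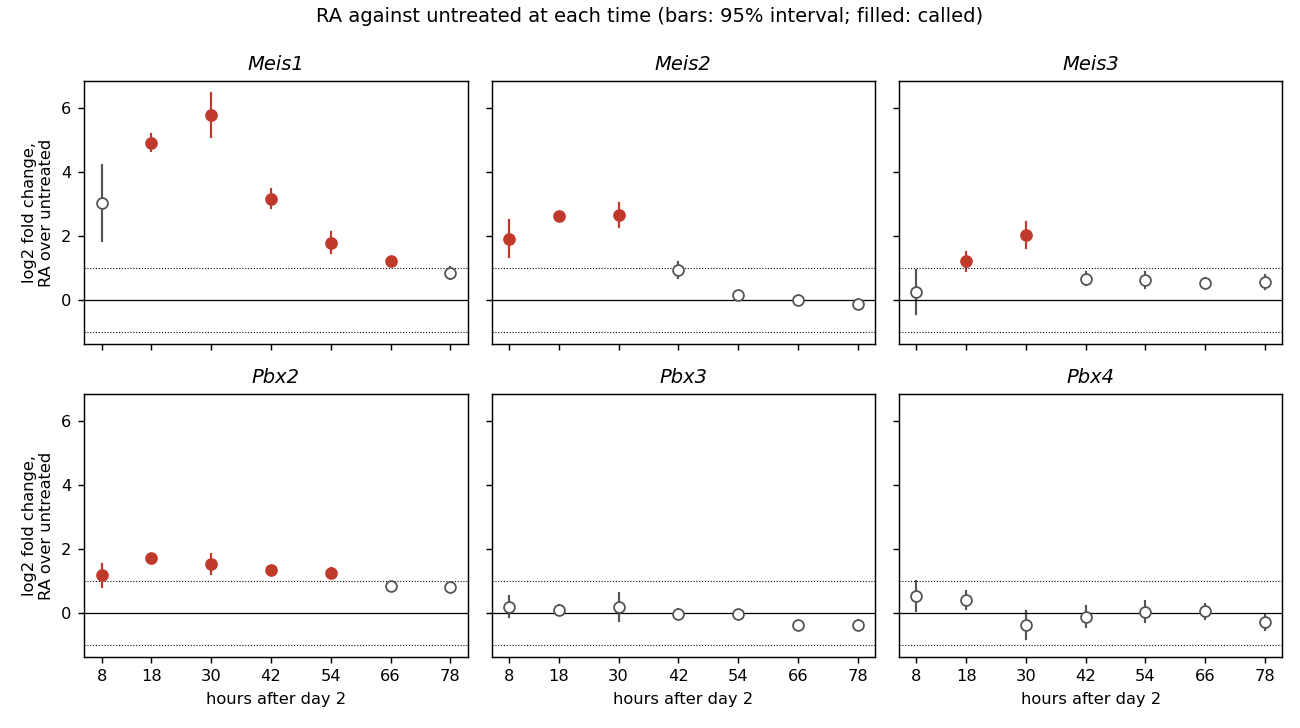
Log2 fold change of RA over untreated (y axis, shared) for each gene against hours after day 2 (x axis), with 95% intervals from 3 against 3 libraries. Filled red points were called and open points were not, and dotted lines mark log2 fold changes of 1 and -1. Meis1 peaks at 5.78 at 30 h, Pbx2 falls from 1.73 at 18 h to 0.81 at 78 h, and Pbx3 and Pbx4 stay between the dotted lines.

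Whether the RA effect itself differed between times was tested as an interaction over 12 libraries with an adjusted p under 0.01. From 8 h to 18 h it differed for none of the 6 genes beside 0.341% of all 17009 genes tested, with edgeR or with DESeq2, and 4 had an unadjusted p under 0.05. Without replicate 3 of RA 8 h the effect was larger at 18 h by 1.48 ± 0.25 for Meis1 (adjusted p = 0.0014) and by 0.45 ± 0.09 for Meis2 (adjusted p = 0.003). From 18 h to 42 h the effect was smaller for 3 genes beside 16.2% of all genes, with differences of -1.73 ± 0.25 for Meis1, -1.67 ± 0.14 for Meis2 and -0.37 ± 0.07 for Pbx2. In 1 fit of all 45 libraries the difference of Pbx2 was not called (adjusted p = 0.061). From 42 h to 78 h the effect differed for 4 genes beside 12.6% of all genes. It was smaller in size for Meis1, Meis2 and Pbx2, while that of Pbx3 went from -0.02 to -0.37. The differences were -2.34 ± 0.18 for Meis1, -1.08 ± 0.14 for Meis2, -0.54 ± 0.09 for Pbx2 and -0.36 ± 0.09 for Pbx3. The call for Pbx3 was lost without any 1 of 10 of the 12 libraries, with adjusted p up to 0.035. It was also lost with RLE factors (adjusted p = 0.012) and in 1 fit of all 45 libraries (0.13). The change in Meis3 was -0.52 with an adjusted p of 0.038 from 18 h to 42 h and -0.12 with an adjusted p of 0.62 from 42 h to 78 h.

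Each arm was also compared with day 2, with the same 3 day 2 libraries in all 6 comparisons. Untreated organoids at 18 h had 1 gene called, Meis3 at a log2 fold change of 1.01 ± 0.19, beside 4.56% of all genes. Meis3 fell to 0.99 without replicate 3 of day 2 and to 0.90 without replicate 2 of untreated 18 h, while without replicate 1 of day 2 Meis2 was called too, at 1.01. At 42 h untreated organoids had 4 genes called beside 21.8% of all genes, Meis1 at 3.57, Meis2 at 2.70, Meis3 at 2.88 and Pbx3 at 1.72. At 78 h they had 5 called beside 34%, with Meis1 at 6.07, Meis2 at 3.51, Meis3 at 3.93, Pbx3 at 2.01 and Pbx4 at 1.30, while Pbx2 stood at 0.94 ± 0.06.

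With RA, 4 genes were called against day 2 at 18 h beside 20.2% of all genes. They were Meis1 at 5.02, Meis2 at 3.54, Meis3 at 2.18 and Pbx2 at 1.76, and Pbx3 stood at 0.94 and was called at 1.00 without replicate 2 of RA 18 h. At 42 h 5 genes were called beside 32%, the same 4 and Pbx3 at 1.696. At 78 h all 6 were called beside 37.4%. Pbx4 was then at 1.005 ± 0.15, and it was no longer called without replicate 1 or 2 of day 2 or replicate 3 of RA 78 h, at 0.90, 0.98 and 0.97, nor with RLE factors (0.985) or in 1 fit of all 45 libraries (0.977). Every one of these calls was a higher level than on day 2, and of the 3 times compared Meis1 and Meis2 were first called at 42 h in the untreated arm and at 18 h with RA.

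The order of the 15 group means differed between the genes. Meis1 ran from untreated 30 h to RA 78 h over a 124.5-fold range, Meis3 from day 2 to RA 78 h over 22.3-fold and Meis2 from day 2 to RA 30 h over 13.5-fold. Pbx2 ran from day 2 to RA 54 h over 3.63-fold, with all 7 RA groups above all 8 other groups. Pbx3 ran from day 2 to untreated 78 h over 4.03-fold and Pbx4 from untreated 8 h to untreated 78 h over 3.14-fold. Of the 14 neighbouring steps in the order of each gene, groups overlapped at 10 for Meis1, 9 for Meis2, 8 for Meis3, 7 for Pbx2, 10 for Pbx3 and 12 for Pbx4, so that these neighbours did not differ beyond the spread of their libraries.

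To compare genes with each other, levels were divided by exon length and each gene was expressed as a share of its family within a library. Meis2 made up 65.6% ± 2.4 (SD, n = 3) of Meis1 to Meis3 on day 2 and Meis1 made up 4.92% ± 0.40. At 8 h with RA the share of Meis2 was 87.6% ± 2.0, against 77.8% ± 1.7 untreated, without overlap, and it was 86.6% without replicate 3 of RA 8 h. By 78 h with RA the shares were 30.7% ± 1.3 for Meis1, 35.3% ± 2.7 for Meis2 and 34.0% ± 1.9 for Meis3. Untreated organoids at 78 h held 21.8% ± 1.1, 48.8% ± 0.8 and 29.4% ± 0.9. With the length of the longest transcript in place of all exons, the RA shares at 78 h were 24.3%, 43.9% and 31.8%, so that the evenness of the 3 genes depends on the length used. The arms did not overlap in any of the 3 shares per exon length at 78 h, while the CPM of Meis2 overlapped.

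Among Pbx2, Pbx3 and Pbx4, the share of Pbx2 was 75.1% ± 0.5 on day 2. It was 66.7% ± 0.2 untreated and 85.5% ± 0.9 with RA at 18 h, and 62.8% ± 1.4 untreated and 78.9% ± 1.1 with RA at 78 h, without overlap at either time. The share of Pbx3 was 24.3% ± 0.8 untreated and 9.94% ± 0.83 with RA at 18 h. These shares depend on the length too, and with the longest transcript Pbx2 held 50.8% untreated and 69.7% with RA at 78 h. No test was made on shares, since 3 libraries against 3 cannot give an exact permutation p under 0.10.

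**Figure D3:**
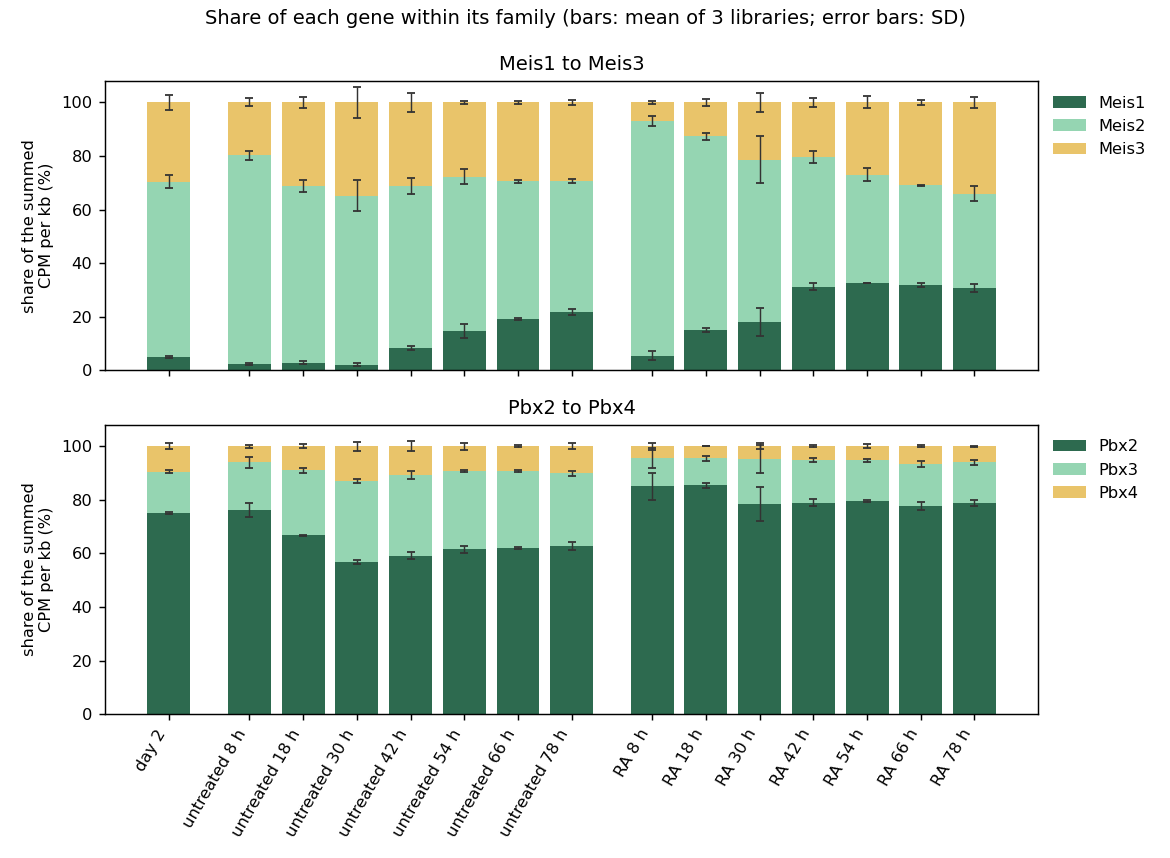
Share of each gene in the summed CPM per kilobase of exon of its family (y axis, percent) in the 15 groups (x axis). Bars are means of 3 libraries and the error bar at the top of each segment is the SD of that segment. The share of Meis1 reaches 30.7% with RA and 21.8% untreated at 78 h, and Pbx2 takes 77.6% to 85.5% with RA from 8 h on (74.9% at 30 h without replicate 2).

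The RA response of known target genes was checked with Cyp26a1, Dhrs3, Rarb and Stra8. Cyp26a1 and Dhrs3 encode enzymes of retinoid metabolism, Rarb is an RA receptor gene, and Stra8 is named for its stimulation by RA. All 4 were called higher with RA at 8, 18, 30 and 42 h, 3 at 54 h, and 2, Rarb and Stra8, at 66 h and 78 h. The 4 calls at 8 h and at 30 h held without the library that differed, beside 5.1% and 13.5% of all genes. Rarb stood at 0.782 ± 0.183 CPM untreated and 44.4 ± 1.8 CPM with RA at 18 h, and at 2.14 ± 0.24 and 33.5 ± 5.1 CPM at 78 h. Cyp26a1 went from a log2 fold change of 6.63 at 18 h to -0.54 at 78 h (adjusted p = 0.023).

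Hox genes, whose products are the partners of the cofactors, were counted at each time beside the shares of all genes called given above. Of 12 genes of Hox groups 1 to 4, 8 of 9 tested were called higher at 8 h, 11 of 11 at 18 h and at 30 h, 9 at 42 h, 7 at 54 h, 6 at 66 h and 7 at 78 h, with 1 lower, Hoxb1, at each of the last 3 times. Without the library that differed, 9 of 9 were called at 8 h beside 5.1% of all genes, and 11 of 11 at 30 h beside 13.5%. The median log2 fold change of those tested was 4.79 at 18 h and 2.59 at 78 h, against 0.02 and 0.00150 over all genes. Of 18 genes of groups 5 to 10, 6 of 10 tested were called higher at 8 h, 10 of 11 at 18 h, 9 of 11 at 30 h, 9 of 13 at 42 h, 7 at 54 h, 8 at 66 h and 8 at 78 h. Lower calls were 1 at 54 h, Hoxa9, and 2 at 66 h, Hoxa9 and Hoxc9. Without the library that differed, 9 of 10 were called higher at 8 h and 12 of 12 at 30 h, beside the same 5.1% and 13.5%. Their median was 4.11 at 18 h and 2.42 at 78 h. Hoxb4 was called at all 7 times, with 0.718 ± 0.139 CPM untreated and 60.2 ± 3.8 CPM with RA at 18 h. Hoxb3, Hoxa4 and, of the more posterior groups, Hoxb5, Hoxb6, Hoxb8 and Hoxa5 were called at all 7 times as well, and Hoxd3 at all 6 times it was tested. Hoxb1, chosen here after its values were seen, went the other way late. It was called higher at 8, 18 and 30 h and lower at 54, 66 and 78 h, from 169 ± 4 CPM with RA against 4.65 ± 0.11 CPM untreated at 18 h to 8.74 ± 3.25 against 58.9 ± 2.7 CPM at 78 h. These counts hold genes that passed a filter on low counts, which genes silent in 1 arm pass only through the other.

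Of 11 other TALE homeobox genes, 0 of 9 tested were called at 8 h by edgeR or DESeq2, with 7 at an unadjusted p under 0.05, and 4, 5, 4, 3, 2 and 2 of 11 were called higher from 18 h to 78 h, with 1, Irx6, lower at 54 h. The shares of all genes called at these 6 times were 10.9%, 8.45%, 12.5%, 13.2%, 11.5% and 11.7%, so that 2 of 11 at 66 h and 78 h is near the background. The count at 8 h rests on 1 library, since without replicate 3 of RA 8 h 4 of 10 were called higher (Irx1, Irx2, Irx4 and Pknox2) beside 5.1% of all genes. At 30 h 4 of 11 were called without replicate 2 of RA 30 h, beside 13.5% of all genes. Their median log2 fold change was 0.36 at 18 h and -0.03 at 78 h. Pknox1 and Pknox2 encode the Prep proteins, the closest relatives of the Meis proteins. Pknox2 rose from 3.32 ± 0.37 CPM untreated to 23.4 ± 0.9 CPM with RA at 18 h and was called at 18, 30 and 42 h. At 78 h it stood at 34.6 ± 2.7 and 30.4 ± 2.8 CPM. Pknox1 and Tgif1 are named here after their values were seen. Pknox1 was called at no time, with log2 fold changes from -0.30 to 0.45. Irx1 and Irx4, Iroquois patterning genes, were called higher at all 6 times from 18 h, and Irx3 was called higher at 30 h (not without replicate 2 of RA 30 h), 42 and 54 h after -0.35 ± 0.09 at 18 h. Tgif1, a repressor of the class, had negative differences at all 7 times, from -0.86 to -0.33, each with an adjusted p under 0.01 and none past the size threshold.

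**Figure D4:**
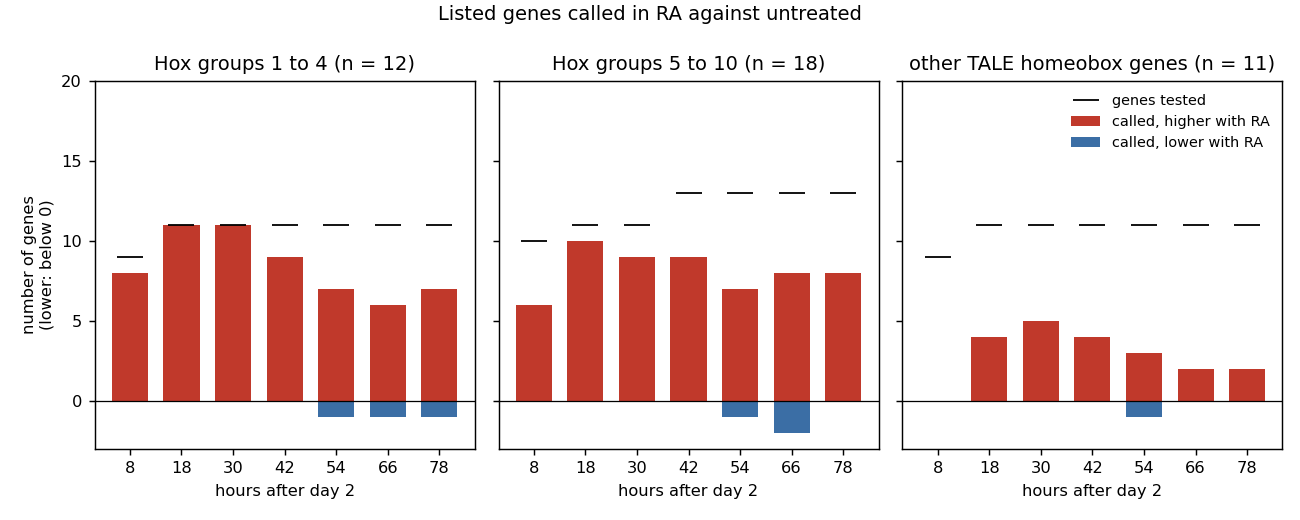
Number of genes called in RA against untreated (y axis) at each time (x axis, hours after day 2) for Hox groups 1 to 4, Hox groups 5 to 10 and the other TALE homeobox genes. Red bars count genes higher with RA, blue bars below 0 count genes lower with RA, and black dashes give the genes tested. All 11 tested genes of Hox groups 1 to 4 were higher at 18 h and 30 h.

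Markers of other cell types also differed between the arms in summed level. The mesoderm markers were T, Tbx6, Meox1, Foxc1, Foxc2, Twist1 and Hand1. At 18 h they summed to 7.43 to 9.52 CPM untreated and 45.9 to 49.0 CPM with RA. The sum with RA was mostly from Meox1 at 30.9 CPM and Foxc1 at 9.51 CPM. T went the other way, at 2.24 CPM untreated and 0.467 CPM with RA, and Tbx6, Twist1 and Hand1 overlapped between the arms. The endoderm markers Sox17, Foxa2, Gata6 and Gata4 summed to 2.56 to 3.02 CPM untreated and 15.8 to 18.7 CPM with RA at 18 h. At 30 h with RA, replicate 2 held 56.2 CPM of mesoderm and 25.8 CPM of endoderm markers, against up to 21.4 and 4.57 CPM in replicates 1 and 3, and it held the highest Meis1 and the lowest Pbx3. The neural crest markers Sox10, Foxd3, Tfap2a and Tfap2b summed to 47.0 to 48.7 CPM untreated and 3.52 to 5.44 CPM with RA at 18 h, where Foxd3, which epiblast cells also express, gave 44.6 CPM of the untreated sum and 0.711 CPM with RA. Sox10 went the other way, with 0.331 CPM untreated and 1.53 CPM with RA. At 78 h the order of the sums was reversed, at 7.84 to 10.3 CPM untreated and 14.7 to 20.2 CPM with RA. The neuron markers were Tubb3, Elavl3, Stmn2, Dcx and Isl1. At 42 h they summed to 214 to 249.5 CPM untreated and 87.5 to 98.8 CPM with RA. Stmn2 alone was at 144 CPM untreated and 35.3 CPM with RA, after 139 CPM on day 2. Isl1 went the other way, at 0.236 CPM untreated and 0.516 CPM with RA. At 78 h the neuron markers summed to 249 to 265 CPM untreated and 264 to 282 CPM with RA, and the ranges overlapped. Their members differed in direction at 78 h, with Stmn2 at 163 CPM untreated and 43.4 CPM with RA, Dcx at 4.90 and 47.4 CPM, and Tubb3 at 67.8 and 139 CPM. The part of these cells in the values of the Meis and Pbx genes was not tested.

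The genes whose pattern was most like each member were named by the Pearson r of log2(CPM + 1) over the 15 group means among 13086 protein-coding genes, as a description over the same 45 libraries. For Meis1 they were Fkbp14, Plxnc1 and Kctd1 (r = 0.984, 0.983 and 0.983). For Meis2 they were Hoxb2 (r = 0.981), Zfp423 (r = 0.966) and Gm45716 (r = 0.95), and for Pbx2 they were Cotl1, Hoxb4 and Hoxb8 (r = 0.976, 0.973 and 0.972). For Meis3 they were Nsg1, Fignl2 and Boc (r = 0.994, 0.99 and 0.989), for Pbx3 Abhd8, Atxn1l and Purg (r = 0.985, 0.983 and 0.983), and for Pbx4 Klhl15, Kif21b and Tvp23a (r = 0.967, 0.966 and 0.961). Among the members themselves r was highest for Meis1 with Meis3 (0.932) and Pbx3 with Pbx4 (0.91), and lowest for Pbx2 with Pbx4 (0.353) and Pbx2 with Pbx3 (0.372).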

How the data were processed

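RNA of 45 organoid samples was sequenced as single-end reads from poly(A) libraries made with a directional kit. Per the labels and the methods, reads were trimmed (Trim Galore 0.5.0), filtered of abundant sequences (Bowtie 2 2.3.4.1), mapped on GRCm38 (STAR) and assigned to genes (featureCounts, Subread 1.6.2) by the authors. The deposited values are raw counts, neither normalized nor pooled. The strand setting and the treatment of shared reads are not given in the sources used here, so that overlapping genes may share or lose reads. The RA dose is that of the study design. The protocol in the labels gives the same number in µM in place of nM, lists no 8 h time and gives slightly different late times.

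Counts were tested with edgeR 4.0.16 in R 4.3.3 (TMM, filterByExpr with a minimum count of 10 and a minimum total of 15, glmQLFit and glmQLFTest), each comparison on its own libraries, with Benjamini-Hochberg adjustment over all genes tested. The code was tested on simulated data. The SE is the log2 fold change divided by the square root of F. Symbols, positions and lengths are from GENCODE M21. The p-values measure the spread between the 3 cultures of a group. No 2 replicates agreed within sampling noise.

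Named are the 6 members, for each the 3 most similar genes with a mean of at least 1 CPM, and up to 4 genes per list called in the most RA comparisons. Hoxb1, Hoxa9, Hoxc9, Irx6, Pknox1, Tgif1 and the TALE genes called at 8 h without 1 library fall outside this rule and were chosen after their values were seen. The list counts and shares without the libraries that differed were added after seeing the data. The members and lists were chosen with earlier results of these data known. One gene of the lists is not reported here. Alternatives were RLE factors, library totals, other filters, DESeq2 1.42.0, 1 fit of all libraries, the replicate number as a block, a looser threshold and leaving out each library.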

Additional observations from a re-analysis of the deposited data

Results flagged for a closer look

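The RA effect on 4 of the genes differed between times by a test of the difference itself (edgeR, interaction over 12 libraries, adjusted p over all genes). From 18 h to 42 h the log2 fold change of RA over untreated changed by -1.727 for Meis1 (adjusted p = 1.0e-04), by -1.672 for Meis2 (adjusted p = 6.0e-07) and by -0.3743 for Pbx2 (adjusted p = 0.0011). From 42 h to 78 h it changed by -2.339 for Meis1 (adjusted p = 2.9e-07), by -1.081 for Meis2 (adjusted p = 6.7e-05), by -0.539 for Pbx2 (adjusted p = 3.3e-04) and by -0.364 for Pbx3 (adjusted p = 0.0067). For Meis1 and Meis2 the untreated mean went from 1.08 to 67.5 CPM and from 29.0 to 173 CPM between 18 h and 78 h, while the RA mean went from 32.9 to 120 CPM and from 178 to 157 CPM. Untreated Pbx2 went from 47.3 to 87.5 CPM and Pbx2 with RA from 156 to 152 CPM. The difference of Pbx3 was not called with RLE factors (adjusted p = 0.012), in 1 fit of all 45 libraries (0.13) or without any 1 of 10 of the 12 libraries, and that of Pbx2 from 18 h to 42 h was not called in 1 fit of all 45 libraries (0.061).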

How the results depend on the processing

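Of 129 counts of called genes under the settings other than leaving out a library, 122 were within 1.5 times the reported count and 7 were not. The replicate block left 0 genes called at 8 h, where the log2 fold changes were 1.86 for Meis2 (adjusted p = 0.02) and 1.15 for Pbx2 (adjusted p = 0.025), and it changed no other call. The replicate numbers were not taken to pair the arms, since 9 of 21 same-number pairs had correlated deviations over 0.1 (range -0.386 to 0.521) and 10 of 21 untreated libraries were closest to their own number. At an adjusted p under 0.05 with no minimum fold change, 4 genes passed at 42 h beside 8383 of all 16508 genes tested. At 66 h the count was 4 beside 7990 of 16993, and at 78 h it was 4 beside 8011 of 17059. For untreated 18 h against day 2 it was 3 beside 6774 of 16047. Passing this threshold was thus common over all genes. In 1 fit of all 45 libraries the count for untreated 18 h against day 2 was 0 beside 713 of all genes. Without a filter on low counts 2 genes differed in RA effect between 8 h and 18 h beside 348 of all genes. Leaving out 1 library gave 0 to 3 genes at 8 h, 0 to 2 for untreated 18 h against day 2 and 0 to 2 for the RA effect at 18 h against 8 h. The highest of these counts stood beside 833, 625 and 456 of all genes called.

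Signs reversed only for differences that were not called. With library totals Pbx3 was at 0.0402 at 42 h and 0.0138 at 54 h and Meis2 at 0.0477 at 66 h, where 1 fit of all libraries gave 0.005611. Leaving out 1 library gave ranges that crossed 0 for 8 of these. The ranges were -0.0120 to 0.4997 for Meis3 at 8 h, -0.0692 to 0.0243 for Pbx3 at 42 h, -0.208 to 0.0122 for Pbx4 at 42 h, -0.0706 to 0.108 for Pbx4 at 54 h, -0.0509 to 0.0677 for Meis2 at 66 h, -0.00101 to 0.0872 for Pbx4 at 66 h, -0.0181 to 0.277 for Meis1 in untreated 18 h against day 2 and -0.208 to 0.0215 for the RA effect on Pbx3 at 18 h against 8 h. Library totals moved the median of all genes by -0.08 to 0.20 on the log2 scale, by over 0.1 in 7 of 16 comparisons. They moved the share of calls that were higher from 71.7% to 82.3% for RA 18 h against day 2, from 53.4% to 63.5% for the RA effect at 18 h against 8 h and from 51.1% to 37.5% for that at 42 h against 18 h. Untreated Meis1 rested on 13 to 43 counts a library up to 30 h, and changes smaller than its spread were not detectable there.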
